A study of Mus musculus with 6 samples.

Results

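Olfactory receptor genes (Olfr) were examined as a gene family that blood cells are not known to use, to read the level that an H3K79 methylation experiment gave where little or no mark would be present. Members were all regions whose gene name began with Olfr followed by a digit, which gave 1122 of 24012 regions (4.67%) in the table of read counts. The cells were haematopoietic progenitors from mouse bone marrow that carried a retrovirus for the leukaemia fusion MLL-AF9, either unaltered (WT) or with the substitution D544R or D546R. Chromatin of each of these 3 cell populations was precipitated with an antibody to H3K79me2 or to H3K79me3 and sequenced, which gave 6 libraries and 1 library per group. The retroviral fusion was present in all 6, so there was no library of cells without MLL-AF9, and no input library was used here. With 1 library per group, no p-value was computed and every interval below covers counting error only, not the spread between cultures.

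Olfactory receptors are G-protein-coupled receptors of the sensory neurons of the nose, and each neuron expresses a single receptor gene while the others stay packed in heterochromatin. The genes are short, mostly have an intronless coding sequence, and lie in long clusters on many chromosomes. H3K79 methylation is placed by the enzyme DOT1L on the bodies of transcribed genes, and MLL fusions that recruit DOT1L raise it at their targets. Silent gene families are therefore often taken as a reference for the reads that a precipitation carries over without the mark.

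The members lay on 17 chromosomes, of which chromosome 2 held 289. Per the table's header, a region holds the transcribed gene plus the 2 kb upstream of it. The members' regions (mm9) had a median length of 2.95 kb and 1010 were between 2.5 and 3.5 kb, whereas the median of all regions was 15.9 kb. In 938 members (83.6%) the length less 2 kb was a multiple of 3, as the length of a coding sequence is, against 36.9% of all regions. Only 41 members overlapped another region, and 9 of these overlapped a region that was not an olfactory receptor. None of the 1122 was at 0 in all 6 libraries, and 464 had a count in every library.

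RefSeq promoter sequences (GRCm38.p6) were matched by symbol to 928 members. The 250 bases before the annotated start are shown for 3 members whose counts are described below, and for Gapdh, a glycolytic gene used in every cell, to show the base composition of these stretches. Olfr771 had the most H3K79me3 counts of these in WT, Olfr836 had none there, and Olfr17 is the P2 odorant receptor, a model of receptor choice. All are written 5′ to 3′ with CG dinucleotides in capitals. The coordinates are chr10:129160983-129161232 on the minus strand for Olfr771, chr9:19120707-19120956 on the plus strand for Olfr836, chr7:107097217-107097466 on the plus strand for Olfr17 and chr6:125165774-125166023 on the minus strand for Gapdh.
Olfr771: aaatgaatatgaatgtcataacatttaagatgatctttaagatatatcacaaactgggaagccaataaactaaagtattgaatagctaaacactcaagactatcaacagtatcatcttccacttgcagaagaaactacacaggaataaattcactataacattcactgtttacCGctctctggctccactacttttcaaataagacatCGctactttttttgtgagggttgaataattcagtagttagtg
Olfr836: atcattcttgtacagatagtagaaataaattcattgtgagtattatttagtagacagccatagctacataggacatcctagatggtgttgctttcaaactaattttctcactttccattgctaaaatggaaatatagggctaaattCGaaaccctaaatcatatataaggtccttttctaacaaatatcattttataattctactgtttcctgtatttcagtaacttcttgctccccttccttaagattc
Olfr17: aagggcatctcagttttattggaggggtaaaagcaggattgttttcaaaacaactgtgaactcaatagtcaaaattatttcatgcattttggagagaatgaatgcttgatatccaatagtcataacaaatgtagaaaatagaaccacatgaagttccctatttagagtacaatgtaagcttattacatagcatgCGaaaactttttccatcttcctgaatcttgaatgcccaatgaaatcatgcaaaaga
Gapdh: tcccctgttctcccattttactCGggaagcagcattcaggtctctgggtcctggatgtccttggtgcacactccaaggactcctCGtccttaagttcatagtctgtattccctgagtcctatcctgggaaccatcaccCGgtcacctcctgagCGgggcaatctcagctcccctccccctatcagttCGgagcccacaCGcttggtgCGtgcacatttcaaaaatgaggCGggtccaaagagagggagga
These 3 receptor stretches held 2, 1 and 1 CG and 32.8%, 31.6% and 33.6% G or C, and the Gapdh stretch held 8 CG and 55.6% G or C.

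Over the 928 matched members the median G and C content of these 250 bases was 33.6%, against 52.0% over 27025 RefSeq promoters. The median number of CG was 1 against 6, and 44.6% of the members had none against 8.26% of all promoters. The letters TAATTA, a core bound by homeodomain proteins, occurred on either strand in 18.2% of the members and 4.90% of all promoters. TATAAA, the TATA box core, occurred in 39.1% and 13.0%. A core of the Ebf motif occurred in 4 members (0.431%) and in 0.788% of all promoters. The first 2 of these are made of A and T alone and the share of A and T was itself higher in the members, so the matches describe letters and not sites. Split into 3 groups of rising G and C content, the members gave nearly equal H3K79me2 densities in WT, of 3.64, 3.68 and 3.55 counts per kb. In D546R H3K79me3 the share of members with no count was 40.1%, 30.7% and 29.0% in the same order.

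The deposited counts summed to between 3558329 and 6652571 per library. Genes of blood cells stood above the members, most of them in H3K79me2. The 10 blood progenitor and myeloid genes of a fixed list, Ptprc (CD45) and Spi1 (PU.1) among them, together had 4.25, 4.82 and 6.44 times the members' H3K79me2 density in WT, D544R and D546R, and 1.96, 1.74 and 1.98 times their H3K79me3 density. Of these 10, 7, 8 and 7 exceeded 2 times the members' density in H3K79me2 and 4, 2 and 2 in H3K79me3, and none was at 0. The 10 genes of olfactory neuron signalling, such as Adcy3 and Omp, had between 0.862 and 0.903 times the members' density in H3K79me2 and between 0.669 and 0.903 times in H3K79me3. None of these 10 exceeded 2 times the members' density in any library, and Omp was at 0 in D546R H3K79me3. Of 4 receptor transport genes, 1 exceeded it in H3K79me2, Ric8b in D546R at 2.14 times. Of 4 receptor choice genes, 1 did so in each H3K79me2 library, Ldb1 at 4.58, 4.65 and 5.21 times in WT, D544R and D546R. No gene of either list did so in H3K79me3.

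In each mark the WT and D544R counts went together across the members, more than those of any other pair of libraries. Over the 1010 members of 2.5 to 3.5 kb, Spearman's rho between WT and D544R was 0.402 in H3K79me2 and 0.292 in H3K79me3, and Pearson's r was 0.396 and 0.172. For the other 13 of 15 pairs of libraries rho lay between -0.022 and 0.068, including D546R with WT at -0.008 in H3K79me2 and 0.023 in H3K79me3. These are descriptions across regions of nearly 1 length, which share the library they were counted in. A member that was high in WT was never empty in D544R. Of 213 members with 30 or more counts in WT H3K79me3, 0 had no count in D544R and the lowest had 3, whereas 79 (37.1%) had no count in D546R. Over all 1010 members 15.6% had none in D544R and 35.4% in D546R, so the D546R share was near that of all members. Where WT had 60 or more counts (35 members), D544R had at least 10 and a median of 21, and 12 of the 35 were at 0 in D546R. At high H3K79me3 counts the relation ran in 1 direction: of 178 members with 30 or more counts in D544R, 43 (24.2%) had none in WT. Over all 1010 members 22.5% had none in WT. Below 30 D544R counts, WT rose with D544R. The mean in WT was 1.17 at 0, 9.55 at 1 to 3, 18.1 at 4 to 9 and 23.0 at 10 to under 30. Among the 158 members at 0 in D544R, the median in WT was 0 and the highest was 12, while D546R had a median of 9.5 and a maximum of 122 at the same members.

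**Figure D1:**
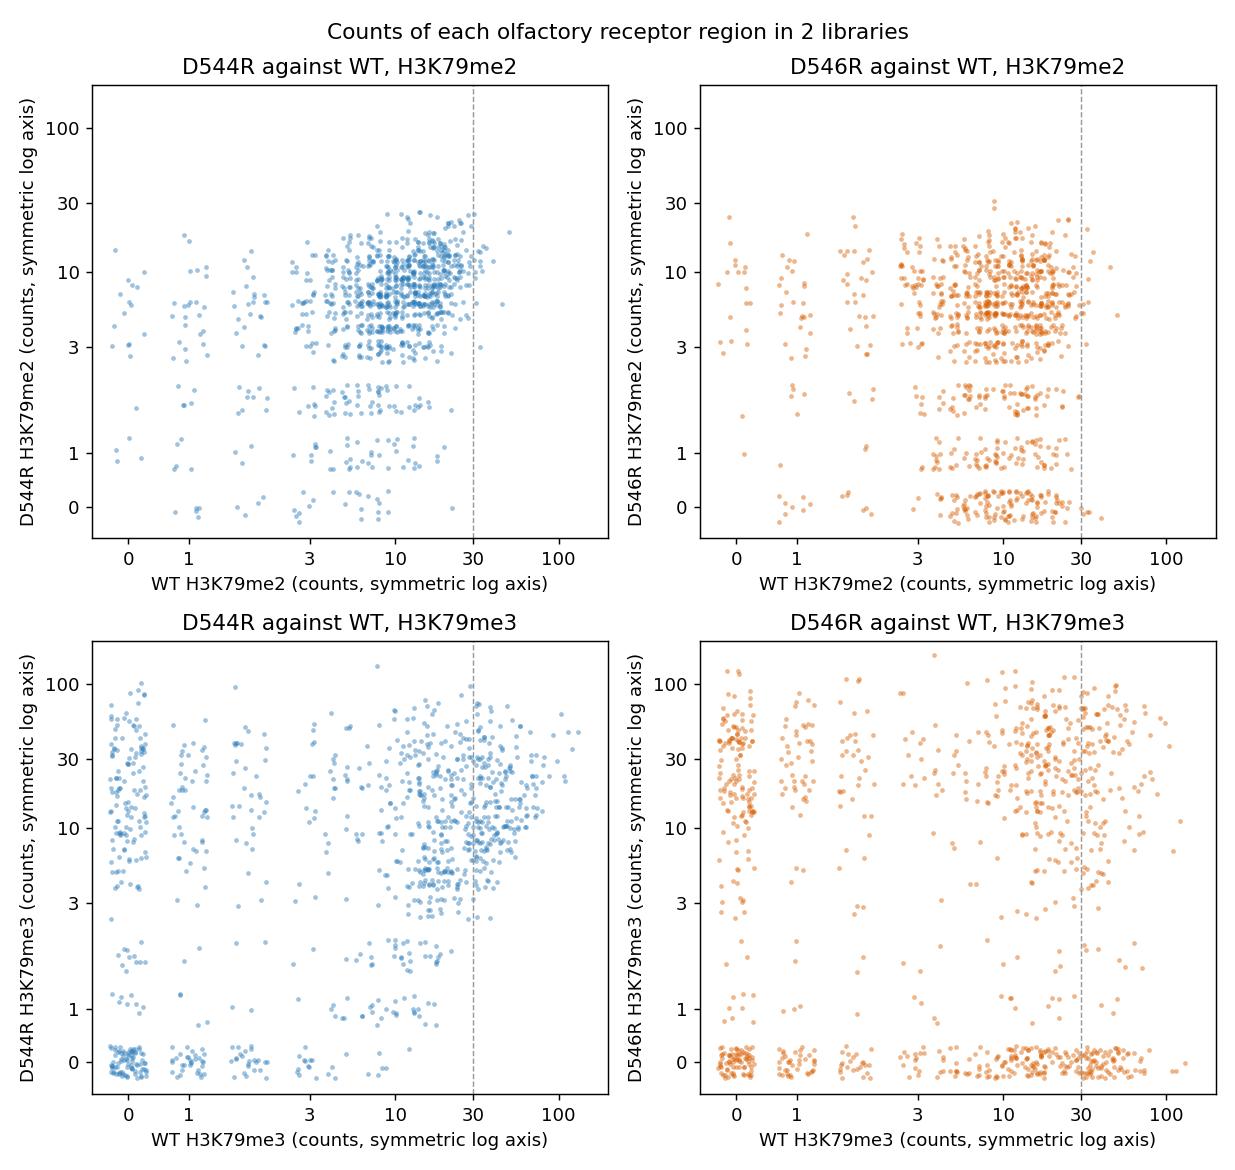
Counts of each of the 1010 olfactory receptor regions of 2.5 to 3.5 kb in WT (horizontal) against D544R (left, blue) or D546R (right, orange), for H3K79me2 (top) and H3K79me3 (bottom), on symmetric log axes with a small random offset to part equal counts. To the right of the dashed line at 30 WT counts the H3K79me3 panel of D544R has no point at 0, and that of D546R has 79.

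Vomeronasal receptor genes, the chemoreceptors of a separate nasal organ, were likewise never empty in D544R where WT was high. Of 43 such regions of 2.5 to 3.5 kb with 30 or more WT counts in H3K79me3, 0 were at 0 in D544R and 11 were at 0 in D546R. Over all 193 of that length the shares were 12.4% and 26.9%. Among 157 regions of that length and WT level from neither family, 0 were at 0 in D544R and 43 in D546R. Over all 932 of them the shares were 17.5% and 35.1%. In H3K79me2 only 16 members reached 30 counts in WT, of which 0 were at 0 in D544R and 5 in D546R. Over all 1010 members 3.07% and 14.5% were at 0 there, so 0 of 16 does not differ clearly from the D544R share. A straight line through the members gave 0.273 D544R counts per WT count in H3K79me2 and 0.155 in H3K79me3, which amounts to 40.2% and 16.1% of the D544R counts at the members. How these counts came to go together was not tested. D544R densities, ratios and counts of calls below are therefore given again after this proportional part of the WT counts was taken away, an adjustment chosen after seeing the data. Empty members, clumps and single members are given as deposited only, since the subtraction itself sets low counts to 0. It also widens the ratios to WT, so larger numbers of calls after it follow at least in part from the subtraction. Outside the olfactory receptors, D546R also went along with WT: rho was 0.185 in H3K79me2 and 0.216 in H3K79me3 over the 193 vomeronasal regions, beside 0.461 and 0.442 for D544R. The H3K79me3 slope on WT over these regions was 0.266 for D546R and 0.199 for D544R. No such part was taken away from D546R. Over the 932 other regions of that length, rho with WT was 0.460 and 0.140 for D546R and 0.669 and 0.410 for D544R.

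The members carried a low but countable level in all libraries, and it was higher for H3K79me3 than for H3K79me2. The H3K79me2 density was 3.60 counts per kb in WT, 2.44 in D544R and 1.88 in D546R. For H3K79me3 it was 5.29, 5.09 and 6.49 counts per kb. D544R had 1.51 and 4.30 counts per kb in the 2 marks less the part proportional to WT. Counting reads in clumps rather than singly, as described below, the 95% intervals were 3.51 to 3.70, 2.38 to 2.52 and 1.81 to 1.95 for H3K79me2, and 5.06 to 5.52, 4.89 to 5.30 and 6.16 to 6.84 for H3K79me3. The members took 0.238%, 0.226% and 0.210% of the H3K79me2 counts and 0.358%, 0.388% and 0.387% of the H3K79me3 counts, in regions that made up 0.385% of the length counted. In H3K79me3 the D544R and D546R members thus had close to the share that their length alone would give.

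The whole table stood above this level for H3K79me2 and hardly for H3K79me3. The density over all regions was 1.62, 1.70 and 1.84 times the members' density in WT, D544R and D546R H3K79me2. In H3K79me3 it was 1.08, 0.993 and 0.995 times. Regions with 100 or more counts and at least 2 times the members' density numbered 4368, 4115 and 4174 for H3K79me2, and 1868, 1323 and 1805 for H3K79me3. Ribosomal protein genes, which all growing cells transcribe, had 3.11, 3.51 and 3.60 times the members' density in H3K79me2 and 1.54, 1.39 and 1.49 times in H3K79me3.

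Other silent families lay between 0.704 and 1.58 times the members' density. The 337 vomeronasal receptor regions had 0.877, 0.885 and 0.886 times the members' density in H3K79me2 and 0.964, 0.920 and 0.891 times in H3K79me3. The 35 bitter taste receptor regions had 1.02, 1.09 and 1.14 times in H3K79me2 and 0.945, 0.854 and 0.877 times in H3K79me3. Keratin-associated protein genes (52 regions), which encode hair proteins, lay lower in H3K79me2 at 0.704, 0.855 and 0.718 times, and ranged from 0.718 to 1.35 times in H3K79me3. The 15 trace amine receptor regions had 1.06, 1.15 and 0.936 times in H3K79me2 and 1.32, 0.855 and 1.58 times in H3K79me3. The 43 beta-defensin regions had 0.840 to 0.939 times over the 6 libraries.

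**Figure D2:**
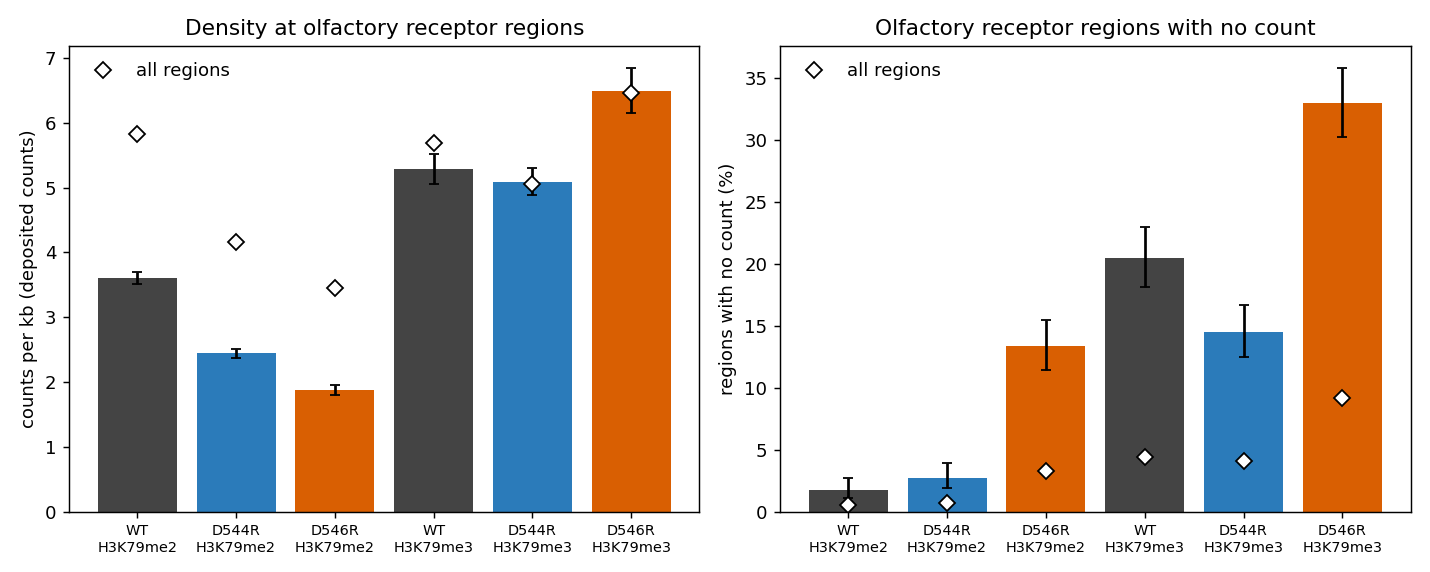
Left, counts per kb over the 1122 olfactory receptor regions (bars, with 95% counting intervals over clumps of reads) and over all 24012 regions (diamonds) in each library. Right, percent of regions with no count, with exact binomial 95% intervals. H3K79me3 has the higher density of the marks and also the larger shares of empty regions, up to 33.0% in D546R.

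The share of empty members ran against the density in H3K79me2 and had the same order as the density in H3K79me3. In H3K79me2, 20 members (1.78%, exact binomial 95% interval 1.09 to 2.74%) had no count in WT, 31 (2.76%, 1.88 to 3.90%) in D544R and 150 (13.4%, 11.4 to 15.5%) in D546R. In H3K79me3, 230 (20.5%, 18.2 to 23.0%) had none in WT, 163 (14.5%, 12.5 to 16.7%) in D544R and 370 (33.0%, 30.2 to 35.8%) in D546R. D546R H3K79me3 was thus the library with the highest density over the members and the most members at 0. Had single reads been scattered evenly over the members, the expected share at 0 would have been at most 0.347% in any of the 6 libraries. Over all regions the share at 0 was 0.575%, 0.683% and 3.31% in H3K79me2 and 4.43%, 4.09% and 9.17% in H3K79me3. In H3K79me3, 410 members were at 0 in 1 library, 142 in 2 and 23 in all 3, and in H3K79me2, 189, 6 and 0. Of the 230 members empty in WT H3K79me3, 80 (34.8%) were also empty in D544R, against 14.5% of all members. In D546R 76 (33.0%) of the 230 were empty, as were 55 (33.7%) of the 163 empty in D544R. Both shares were near the 33.0% of all members.

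**Figure D3:**
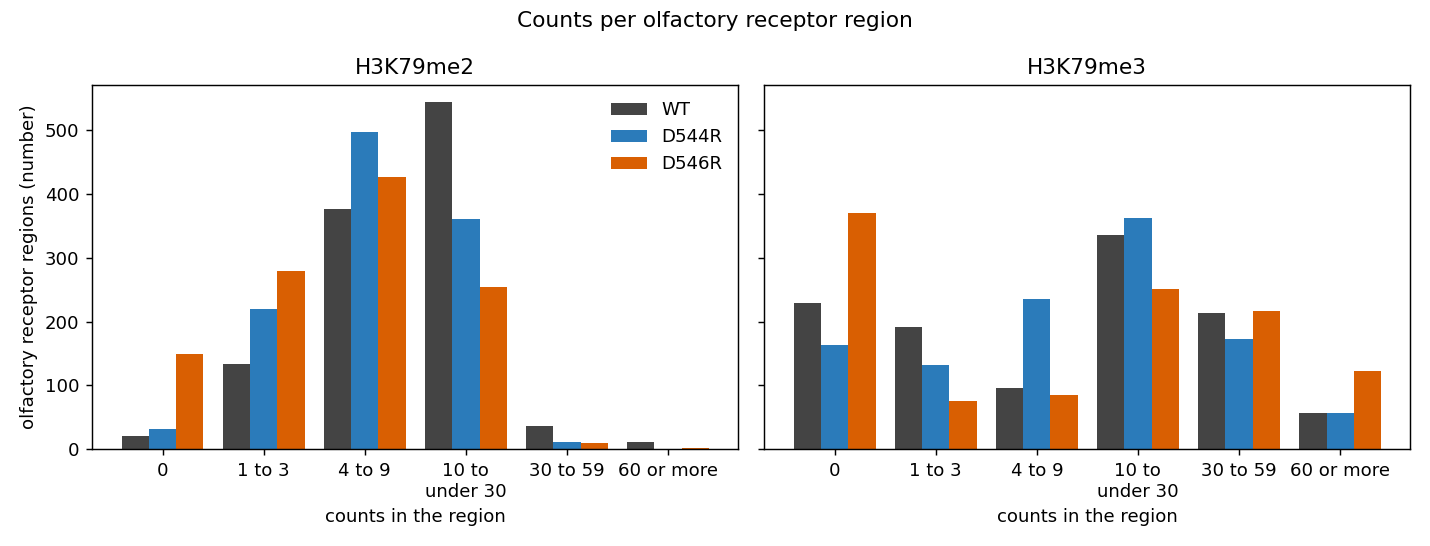
Number of olfactory receptor regions in classes of counts (horizontal) in WT, D544R and D546R for H3K79me2 (left) and H3K79me3 (right). The H3K79me2 libraries have most regions between 4 and under 30 counts, and D546R H3K79me3 has 370 regions at 0 beside 340 with 30 or more.

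Counts at the members came in clumps. If reads fall in independent clumps, the share of members at 0 gives the number of clumps, and the counts divided by that number give the reads per clump. This was 2.71 reads (95% interval 2.41 to 3.05) in WT, 2.07 (1.87 to 2.30) in D544R and 2.89 (2.68 to 3.13) in D546R H3K79me2. In H3K79me3 it was 10.4 (9.65 to 11.3), 8.18 (7.58 to 8.85) and 18.5 (17.1 to 20.1). Over all regions the same estimate gave 4.48, 3.39 and 5.34 reads in H3K79me2 and 10.3, 8.76 and 19.1 in H3K79me3. The clumps were thus not particular to the members. The 25760 D546R H3K79me3 counts at the members thus corresponded to 1391 clumps, fewer than the 2579 behind the 7457 counts of D546R H3K79me2. The variance of the counts gave larger clumps, from 3.27 reads in D544R H3K79me2 to 32.1 in D546R H3K79me3, with the same libraries lowest and highest. Members with 30 or more counts numbered 48, 13 and 11 in H3K79me2 and 269, 228 and 340 in H3K79me3. At the other end, 134, 220 and 280 members had 1 to 3 counts in H3K79me2, and 191, 132 and 76 in H3K79me3. Nothing in the labels states how duplicates were handled, and their part in these clumps was not tested.

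Single members show what this clumping does. Those named for a ratio were picked as the 3 lowest or 3 highest among members with a mean scaled count of 10 or more. An empty library beside a high one is thus part of the choice. Some reached that mean only through the library in which they were high. The intervals do not allow for this choice. Olfr771 (chromosome 10, 128595084 to 128598038) had 131 H3K79me3 counts in WT, 46 in D544R and 0 in D546R, and 15, 8 and 0 in H3K79me2. The 95% interval of its log2 ratio of D546R to WT in H3K79me3 ended at -5.38 when each read was counted and at -0.97 over clumps. Olfr791, on the same chromosome, had 114, 46 and 0 H3K79me3 counts, and Olfr672 on chromosome 7 had 108, 23 and 0, with intervals over clumps that ended at -0.74 and -0.65. All 3 were high in WT, intermediate in D544R and empty in D546R.

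Other members had the opposite order. Olfr645 (chromosome 7, 111230644 to 111233592) had 0 H3K79me3 counts in WT, 0 in D544R and 122 in D546R, with a log2 ratio of D546R to WT above 0.99 by the interval over clumps. Olfr960 had 0, 17 and 122 and Olfr1168 had 0, 1 and 118. Olfr836 (chromosome 9, 18923400 to 18926355), whose promoter is shown above, had 0, 91 and 86, while its H3K79me2 counts were 2, 2 and 4. Olfr891 had 0, 102 and 0, with a log2 ratio of D544R to WT above 1.36 over clumps, and 0, 9 and 6 in H3K79me2. In these members a single library, or a pair of them, held nearly all of the counts.

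Picked by their ratio to WT, the members highest in D544R in H3K79me3 had no WT counts. Those lowest in D544R were at 0 there and had few WT counts. The 3 lowest by fitted ratio in D544R H3K79me3 were Olfr657 with 9, 0 and 60 counts in WT, D544R and D546R, Olfr332 with 6, 0 and 56, and Olfr658 with 6, 0 and 101. For all 3 the interval over clumps included no change. No member fell to 0 in D544R from a WT level such as that of Olfr771.

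In H3K79me2 the members with the most counts per kb were Olfr657 with 25, 17 and 23, Olfr616 with 50, 19 and 5, and Olfr1361 with 36, 15 and 14 counts in WT, D544R and D546R. Their H3K79me3 counts were 9, 0 and 60, then 0, 3 and 5, then 1, 38 and 0, with no common order. The 3 lowest in D546R were Olfr970 with 40, 12 and 0, Olfr870 with 34, 15 and 0, and Olfr732 with 33, 14 and 0. Their log2 ratios to WT lay below -0.90, -0.64 and -0.59 by the interval over clumps. The highest was Olfr780 with 0, 4 and 24, above 1.75. Olfr1076 followed with 2, 11 and 24 and Olfr559 with 2, 7 and 21. The lowest in D544R were Olfr824 with 33, 3 and 20, Olfr354 with 22, 2 and 23, and Olfr294 with 45, 6 and 11. The highest there, beside Olfr1076, were Olfr957 with 3, 16 and 9 and Olfr115 with 5, 18 and 8. For H3K79me3 the members with the most per kb, beside Olfr771, were Olfr328 with 104, 62 and 37 and Olfr1402 with 92, 44 and 58, which were populated in all 3 libraries.

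Receptors used as models of olfaction looked like the rest. Olfr17 had 23, 4 and 4 counts in WT, D544R and D546R H3K79me2 and 1, 15 and 0 in H3K79me3. Olfr151, the M71 receptor, had 7, 11 and 9 in H3K79me2 and 0 in all 3 H3K79me3 libraries, where a count of 0 allows up to 3 independent clumps each. Olfr2 (I7) had 12, 6 and 1 in H3K79me2 and 31, 6 and 25 in H3K79me3. Olfr73 had 20, 10 and 7, then 4, 0 and 0, and Olfr160 had 8, 7 and 10, then 9, 15 and 0. Olfr15 had 16, 5 and 0, then 0, 0 and 17, and Olfr16 had 16, 11 and 12, then 6, 1 and 40. Olfr1507 (7.76 kb) had 21, 14 and 22, then 2, 10 and 27. Olfr78 (20.8 kb) and Olfr558 (11.7 kb), receptors that are also expressed outside the nose, had 62, 51 and 55 and 21, 20 and 11 in H3K79me2. Their H3K79me3 counts were 43, 123 and 98 and 20, 40 and 51. The mean H3K79me2 density, with each library divided by its size factor, was 2.74 per kb for Olfr78 and 1.44 for Olfr558. The other model receptors ran from 1.46 for Olfr2 to 4.25 for Olfr16, with Olfr15 at 1.93 and Olfr151 at 3.06.

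Overlap with other genes touched few members. The longest region, Olfr56 (86.7 kb on chromosome 11), had 457, 348 and 300 H3K79me2 counts and 498, 311 and 516 H3K79me3 counts, and it covered the interferon-induced GTPase gene Ifi47, with 97, 47 and 54 H3K79me2 counts of its own. Olfr275 lay within 4930552N02Rik and had 25, 11 and 23, then 11, 37 and 0. Olfr459 lay within Mir5124b and had 16, 11 and 4, then 0, 35 and 40. None of the members overlapped a region with at least 5 times the members' H3K79me2 density in WT (1444 such regions). The 30 members within 20 to 100 kb of such a region had 1.25, 1.31 and 1.49 times the members' H3K79me2 density in WT, D544R and D546R. Olfr56 was one of these 30. Without it the other 29 had 1.05, 1.00 and 1.15 times the members' H3K79me2 density, and 0.990, 0.875 and 1.22 times their H3K79me3 density. The 1088 members farther away had 0.987, 0.986 and 0.977 times the H3K79me2 density, and 4 lay closer.

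The density varied between clusters, least in WT H3K79me2. Of 49 clusters, defined as members of a chromosome with gaps of at most 1 Mb, 16 held 20 or more members and 945 in all. Their WT H3K79me2 density ran from 3.22 per kb on chromosome 19 (from Olfr1417) to 4.12 on chromosome 1 (from Olfr16), a 1.28-fold range. The range was 1.44-fold in D544R (1.79-fold less the part proportional to WT) and 1.76-fold in D546R. For H3K79me3 it was 1.71-fold in WT, 1.72-fold in D544R and 2.20-fold in D546R, from 4.66 per kb on chromosome 2 (from Olfr1275) to 10.2 on chromosome 1 (from Olfr16). For D544R H3K79me3 less the part proportional to WT it was 1.92-fold. The number of clumps behind the members differed as well, from 5265 in WT H3K79me2 to 1391 in D546R H3K79me3, and its part in the width of the ranges was not tested. The 6 members on the X chromosome had 48, 44 and 34 H3K79me2 counts, or 2.71, 2.48 and 1.92 per kb. In H3K79me3 they had 10, 22 and 16 counts, or 0.564, 1.24 and 0.902 per kb, below the density of all members in each library, with 4, 3 and 4 of the 6 at 0.

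Each library was next scaled to the others of its mark. The main scaling was the median over regions of each count's ratio to the geometric mean of the 3 libraries, which rests on 23029 regions for H3K79me2 and 20863 for H3K79me3, members included. After it the members' H3K79me2 density was 2.68 per kb in WT, 2.51 in D544R and 2.46 in D546R. The log2 ratio to WT was -0.09 in D544R (95% interval over clumps -0.15 to -0.03) and -0.12 in D546R (-0.19 to -0.05). D546R against D544R, at -0.03 (-0.10 to 0.04), had an interval that included 0. In H3K79me3 the scaled densities were 5.39, 5.84 and 5.56 per kb. The log2 ratio to WT was 0.12 (0.03 to 0.20) in D544R and 0.05 (-0.05 to 0.14) in D546R, and D546R against D544R was -0.07 (-0.17 to 0.02). D544R and D546R are both read against the same WT library. Less the part proportional to WT, D544R against WT was -0.11 in H3K79me2 and 0.15 in H3K79me3, and D546R against D544R was -0.02 and -0.11. Scaled by total counts or by TMM, the H3K79me3 ratios to WT stayed above 0. They were 0.12 and 0.14 in D544R and 0.11 and 0.08 in D546R. Their sign depended on the regions and on the summary. The D546R interval included 0 and the ratio was -0.068 over the vomeronasal receptors. For D544R the median of ratios over members in place of their sum gave -0.43. That median rests on the 547 members with a count in all 3 H3K79me3 libraries. Over all members the median log2 ratio of D544R to WT was 0.00.

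The ratio varied between clusters. Across the 16 large clusters the log2 ratio of D546R to WT ran from -0.51 to 0.41 in H3K79me2, with 14 of 16 below 0, and from -0.45 to 0.76 in H3K79me3, with 6 below 0. For D544R it ran from -0.46 to 0.01 in H3K79me2, with 13 of 16 below 0, and from -0.48 to 0.55 in H3K79me3, with 7 below 0. D544R less the part proportional to WT ran from -0.76 to 0.11 with 12 below 0, and from -0.58 to 0.65 with 7 below 0. The clusters from Olfr338 and from Olfr1275, both on chromosome 2, were the highest and the lowest in D546R H3K79me2.

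**Figure D4:**
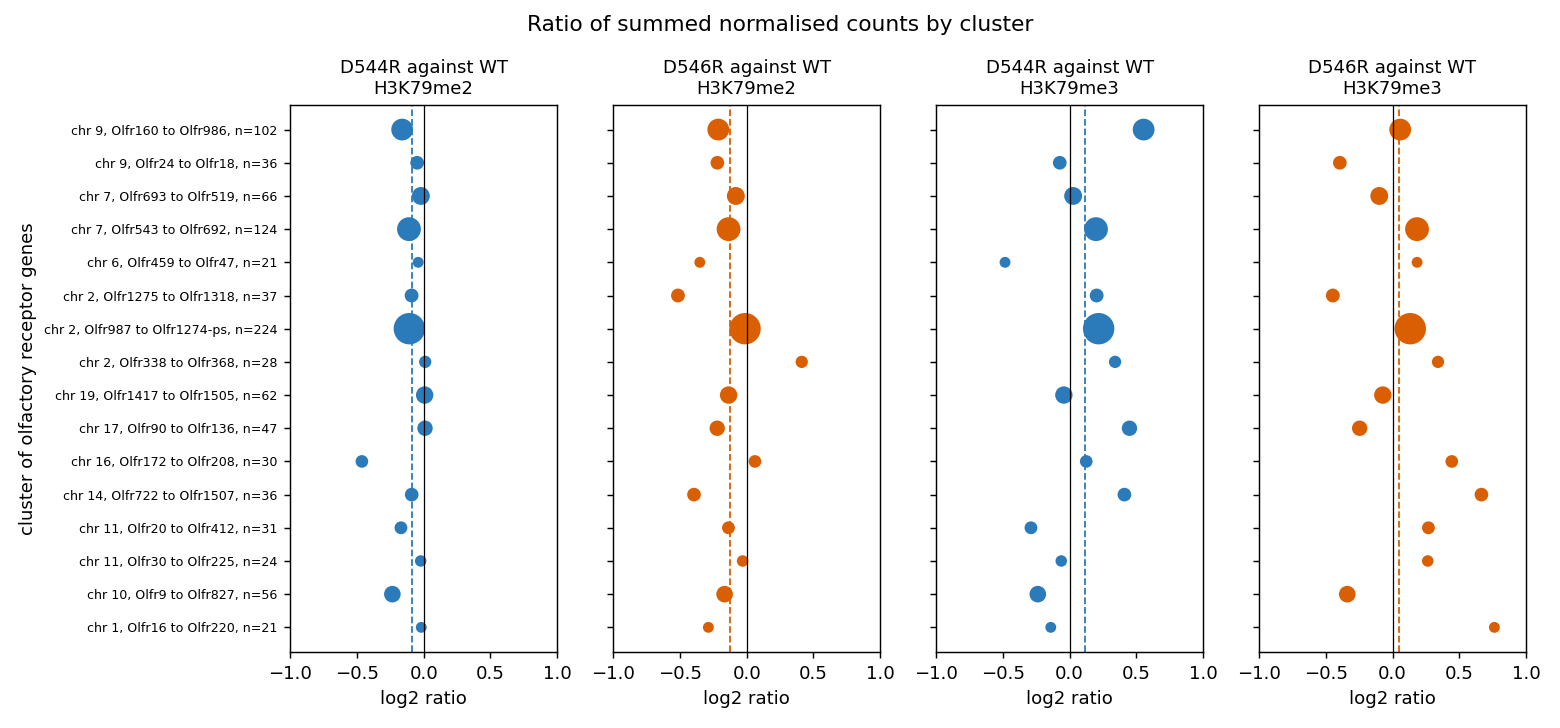
Log2 ratio to WT of the summed, scaled counts (horizontal) for the 16 clusters of 20 or more olfactory receptor genes (rows, point area in proportion to the number of genes), by mutant and mark. The dashed line is the ratio over all 1122 members and the solid line is no change. Points spread from -0.51 to 0.41 in D546R H3K79me2 and from -0.45 to 0.76 in D546R H3K79me3.

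Member by member, the ratios were far more scattered than their sum. The size rule asked for a mean scaled count of 10, which 330 members reached in H3K79me2 and 765 in H3K79me3, for a change of 2-fold or more, and for a counting interval that left out a ratio of 1. It is not a test. In H3K79me2 D546R against WT, 52 members were lower and 52 higher (15.8% of the 330 each), where the rule took 7.16% and 4.15% of all regions. For D544R 27 were lower and 21 higher (8.18% and 6.36%), against 1.06% and 1.9% of all regions. In H3K79me3 D546R against WT, 253 were lower and 257 higher (33.1% and 33.6%), against 18.2% and 17.8% of all regions. For D544R 234 were lower and 233 higher (30.6% and 30.5%), against 12.4% and 13.4%. In D546R against WT the members were nearer to other regions of 2.5 to 3.5 kb than to all regions. Of these short regions the rule took 14.4% lower and 11.8% higher in H3K79me2, and 34.3% and 31.8% in H3K79me3. It took smaller shares of the vomeronasal regions of any length than of the members. These were 20 lower and 10 higher of 179 in H3K79me2, and 58 and 55 of 266 in H3K79me3. In D546R against D544R 51 members were lower and 41 higher in H3K79me2 (15.5% and 12.4%, against 7.43% and 3.46% of all regions), and 289 and 242 in H3K79me3 (37.8% and 31.6%, against 19.1% and 16.3%). In D544R against WT the rule took 4.89% and 5.75% of the other short regions in H3K79me2 and 29.3% and 24.3% in H3K79me3. Each of these lay below the members' share. Of the vomeronasal regions it took 4 lower and 0 higher of 179 in H3K79me2, and 56 and 47 of 266 in H3K79me3.

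In the comparisons with WT, counting each read, lower and higher members were close in number. The median log2 ratio of the members tested was -0.10 in D546R and -0.04 in D544R for H3K79me2, and 0.00 and -0.01 for H3K79me3, while their SD was 1.52, 0.87, 3.67 and 2.61. With intervals that counted clumps in place of reads, an alternative chosen after seeing the data, 11 lower and 10 higher members were left in D546R H3K79me2, where the same rule took 2.66% and 2.0% of all regions, and 4 and 2 in D544R, where it took 0.276% and 0.635%. Of the 765 members tested in H3K79me3, 8 and 21 were left in D546R, where the rule took 3.62% and 3.95% of all regions. For D544R 4 and 33 of the 765 were left, where it took 1.09% and 2.78%. In H3K79me3 more members were thus higher than lower in both mutants. Over all regions the same held, with 789 lower and 860 higher in D546R and 238 and 606 in D544R. The direction was thus not particular to the members. Less the part proportional to WT, 33 of 227 members tested were lower and 43 higher in D544R H3K79me2, 76 in place of 48, where the rule took 4.85% and 4.98% of all regions. In H3K79me3 255 of 759 were lower and 249 higher, 504 in place of 467, against 16.5% and 15.8% of all regions. Because the subtraction itself widens ratios, these added calls are no result about the members.

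Scaling on the members was then set in place of the median of ratios, so that their summed counts became equal in the 3 libraries of a mark. In D546R against WT the median log2 ratio of all regions thereby rose from -0.02 to 0.10 for H3K79me2, and for H3K79me3 it dropped from 0.00 to -0.05. In D544R against WT it moved from 0.00 to 0.09 and from -0.01 to -0.12. For regions with a mean of 100 or more scaled counts, the direction of the D546R H3K79me2 calls turned on it. By the same 2-fold rule, 77 regions were lower and 76 higher than WT with the median of ratios (0.865% and 0.853% of 8905). With the members as reference 49 were lower and 182 higher (0.55% and 2.04% of 8911). The lower share of the calls thus went from 50.3% to 21.2%. With total counts in place of either, 101 were lower and 59 higher, a lower share of 63.1%. Among regions with a mean of 1000 or more, 20 lower and 1 higher became 14 and 5.

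The other comparisons moved as well. In D546R H3K79me3 964 regions lower and 752 higher than WT (8.91% and 6.95% of 10824) became 1066 and 679 (9.84% and 6.26% of 10838). With the vomeronasal receptors as reference they were 832 and 894, a lower share of 48.2% where the olfactory receptors gave 61.1%, so the 2 silent families gave opposite majorities. In D544R H3K79me3 327 lower and 470 higher (3.02% and 4.34%) became 494 and 328 (4.56% and 3.03%), which reversed the majority. With the median of ratios over the 547 members counted in all 3 libraries as reference, 56 were lower and 1475 higher, the opposite majority. Less the part proportional to WT they were 876 and 450. With the vomeronasal receptors they were 404 and 410, a near balance. In D544R H3K79me2 1 lower and 3 higher (0.0112% and 0.0337%) stayed 1 and 3, and became 28 and 54 less the part proportional to WT. Here too the subtraction itself widens ratios and so adds calls. D546R against D544R went from 78 lower and 67 higher (0.876% and 0.752%) to 69 and 75 (0.774% and 0.842%) in H3K79me2, and total counts gave 110 and 38. In H3K79me3 it went from 898 and 626 (8.3% and 5.78%) to 776 and 755 (7.16% and 6.97%), and the median of the members' ratios gave 2870 and 153.

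Several MLL-AF9 targets lay far enough from no change in D546R against WT to keep their direction under the receptor scaling. Meis1, a homeobox cofactor of the Hox proteins, had 7372, 6154 and 480 H3K79me2 counts in WT, D544R and D546R, or 14.6, 17.9 and 1.82 times the members' density. Its log2 ratio of D546R to WT was -3.12 with the median of ratios and -3.00 with the members as reference. In H3K79me3, where it had 5842, 4525 and 1118 counts, the ratio was -2.64 and -2.68. Its D546R level thus stood at 1.82 and 1.23 times the members' density in the 2 marks. Jmjd1c, a putative histone demethylase, was at -1.02 and -0.90 in H3K79me2 under the 2 scalings, and at -1.87 and -1.91 in H3K79me3. Cdk6, a cyclin-dependent kinase, had -0.93 and -0.81, then -1.60 and -1.65. Hoxa9, a homeobox gene and direct target of MLL fusions, had -2.49 and -2.37, then -0.91 and -0.96. Runx1, a blood transcription factor, was higher in D546R at 0.68 and 0.80 in H3K79me2 and 0.55 and 0.50 in H3K79me3. Myb was near no change in H3K79me2, at -0.13 and -0.01. In D544R against WT, where H3K79me2 ratios were small, the receptor scaling moved Cdk6 from -0.09 to 0.00 and turned Myb from -0.04 to 0.05.

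A reference also allows the members' density to be taken off as background before the ratio is formed. Meis1 in D546R against WT was then -4.05 in H3K79me2 and -4.93 in H3K79me3 on the log2 scale, Cdk6 was -0.90 and -2.78, and Jmjd1c -0.99 and -2.59. The 2 marks differed in how much this changed: Cdk6 H3K79me3 moved from -1.65 to -2.78, and Cdk6 H3K79me2 from -0.81 to -0.90. In D546R the Cdk6 density was 1.57 times the members' in H3K79me3 and 7.28 times in H3K79me2. Meis1 stood at only 1.23 times in D546R H3K79me3, a library where the members' density ranged 2.20-fold between large clusters. Its net H3K79me3 ratio therefore has no firm size. The median region had 0.872, 0.831 and 0.869 times the members' H3K79me3 density in WT, D544R and D546R. For such regions this subtraction leaves nothing in H3K79me3.

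Regions other than members were split into 10 groups by their WT density in the other mark. The members did not belong at the low end of this order. Their WT H3K79me3 density of 5.29 per kb fell between those of group 6 (4.96) and group 7 (5.79). In these groups the H3K79me2 ratio was -0.03 and -0.03 in D544R and 0.00 and 0.08 in D546R. In the lowest group the pooled log2 ratio to WT in H3K79me2 was 0.06 in D544R and -0.04 in D546R, where the members had -0.09 and -0.12. In D546R H3K79me2 the ratio was highest, 0.25, in the ninth group and 0.06 in the top group. In H3K79me3 the ratio of the lowest group was 0.14 in D544R and 0.10 in D546R, beside 0.12 and 0.05 in the members. By their WT H3K79me2 density of 3.60 per kb the members fell between group 4 (3.25) and group 5 (3.67). These had H3K79me3 ratios of 0.08 and 0.09 in D544R and 0.05 and 0.02 in D546R. In the top group it was -0.23 in D544R and -0.46 in D546R, and -0.35 and -0.50 with the members as reference. With the part proportional to WT taken off, D544R had 0.10 and -0.01 in the lowest and top groups of H3K79me2 and 0.17 and -0.29 in those of H3K79me3. The top group thus lay below WT in H3K79me3 in both mutants under both scalings.

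**Figure D5:**
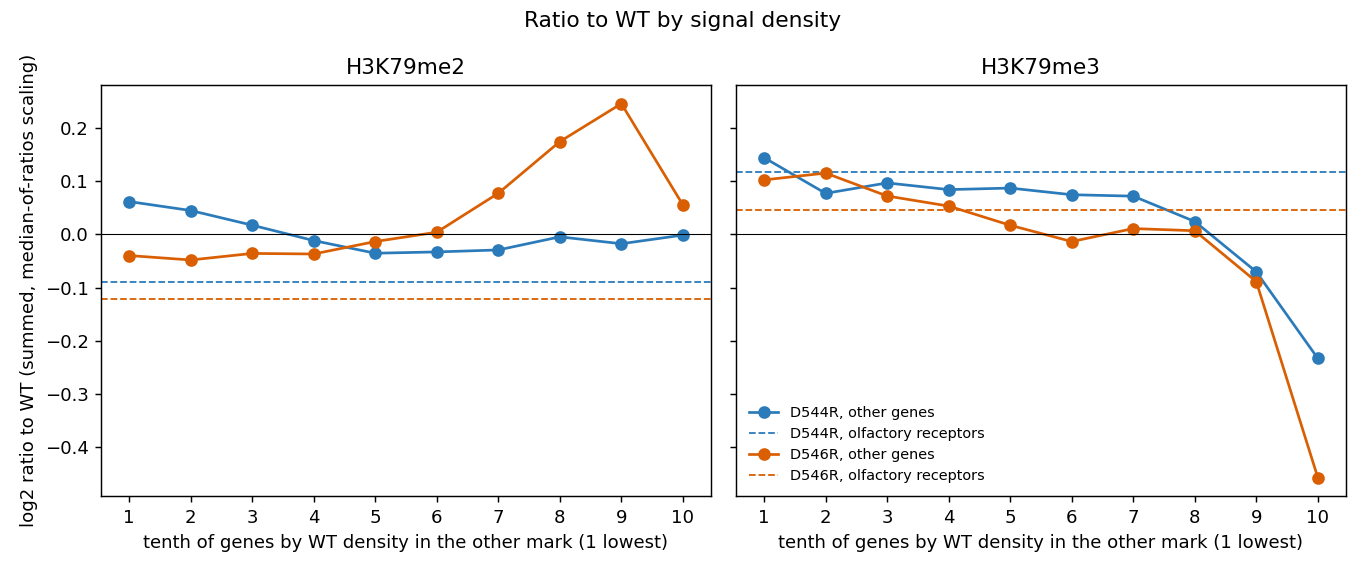
Log2 ratio to WT of summed counts after median-of-ratios scaling (vertical) for 10 equal groups of regions other than olfactory receptors, ordered by WT density in the other mark (horizontal), for D544R (blue) and D546R (orange). Dashed lines are the olfactory receptors, which lie at -0.09 and -0.12 in H3K79me2 and at 0.12 and 0.05 in H3K79me3.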

How the data were processed

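The authors deposited a table of whole-number read counts for 24012 gene regions in 6 ChIP-seq libraries, with the region coordinates. Per the submitters' processing notes the build was mm9 and Bowtie, bedtools and DESeq were used. Their roles and versions, duplicate removal and read extension were not stated. Per the labels' protocols, chromatin was sonicated to about 300 bp and runs were merged. Counts were used as deposited, and all 6 count columns were used.

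Members were the regions named Olfr and a digit. The members and lists were chosen with earlier results of these data known. Libraries were scaled within a mark by the median of ratios, and as alternatives by the summed members, the summed vomeronasal receptors, total counts, or TMM in edgeR 4.0.16 (R 4.3.3). Log2 ratios of single regions used a prior count of 0.5. Intervals are 95%: exact Poisson for densities, Clopper-Pearson for shares, and conditional binomial for ratios. Intervals over clumps used counts divided by the reads per clump, which comes from the number of members at 0. That estimate assumes that every member can be reached by reads, and rests on few empty members in WT and D544R H3K79me2. The scripts were tested on simulated data. Named members were, per mark, the 3 with the most scaled counts per kb, the 3 lowest and 3 highest ratios of each mutant to WT past the rule, the 3 with most counts that overlap another gene, and 10 model receptors. The comparison of libraries over members of 2.5 to 3.5 kb, the removal of the part proportional to WT, the groups by density, distance (also without Olfr56) and G and C content, and the choice of promoters were made after seeing the data. RefSeq sequences are on GRCm38.p6 and were not placed on the mm9 regions. Python 3.11.15, numpy 2.4.6, pandas 2.3.3 and scipy 1.17.1 were used.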

Additional observations from a re-analysis of the deposited data

Results flagged for a closer look

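The members' log2 ratio to WT, with the median of ratios as scaling, was below 0 in H3K79me2 and above 0 in H3K79me3. In D544R the H3K79me3 ratio exceeded the H3K79me2 ratio by 0.21, and in D546R by 0.17. With 1 library per group this difference was not tested, and both mutants were read against the same WT libraries. The D546R H3K79me3 ratio, 0.05, had an interval over clumps that included 0 (-0.05 to 0.14) and was -0.068 with the vomeronasal receptors. The D544R H3K79me3 ratio was -0.43 with the median of ratios over the 547 members counted in all 3 libraries. The opposite signs thus did not hold under these alternatives.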

How the results depend on the processing

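No paired analysis was possible because each group had 1 library and the labels gave no replicate numbers to pair, and for the same reason no replicate could be left out. Of 172 alternative values, 114 stayed close to the reported value, 57 moved further and 1 reversed. A ratio counted as reversed only where its reported interval left out 0. Ratios whose interval included 0 could change sign within the other classes, and some did. The reversal was the H3K79me3 ratio of D544R to WT over the members, -0.43 where the median of ratios over members replaced the sum. This median left out members at 0 in any of the 3 libraries and so rests on 547 members. That setting also moved D546R against D544R H3K79me3 to 0.56, and the D544R H3K79me3 calls to 56 lower and 1475 higher. Total counts moved the H3K79me2 ratio of D546R to D544R to -0.11, and the vomeronasal receptors gave -0.068 for D546R against WT in H3K79me3. The median over members gave 3.07, 2.20 and 1.68 counts per kb in H3K79me2 and 3.48, 3.26 and 3.75 in H3K79me3. Without the 5% of members with most counts per kb these were 3.43, 2.34 and 1.77, and 4.81, 4.69 and 5.88. The variance gave 4.77, 3.27 and 4.44 reads per clump in H3K79me2 and 23.6, 20.5 and 32.1 in H3K79me3.

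Counts of regions past the rule with receptor scaling followed the rule itself. With a minimum mean of 10 they were, lower and higher, 163 and 513 (D544R H3K79me2), 1147 and 1173 (D546R H3K79me2), 3170 and 2538 (D544R H3K79me3) and 4154 and 3710 (D546R H3K79me3). With a threshold of 1.5-fold they were 18 and 164, 234 and 1316, 1806 and 998, and 2340 and 1671. With a minimum mean of 1000, 0 were higher in D544R H3K79me2, 14 lower and 5 higher in D546R H3K79me2, 0 and 0 in D544R H3K79me3, and 81 and 0 in D546R H3K79me3. With the median of ratios there were 77 and 76 in D546R H3K79me2 and 327 lower in D544R H3K79me3. Less the part proportional to WT, there were 28 and 54 in D544R H3K79me2 and 876 lower in D544R H3K79me3, and 76 members past the rule in D544R H3K79me2. That subtraction widens ratios by itself, so the larger numbers follow from it at least in part. Intervals over clumps left 6, 21, 37 and 29 members past the rule in D544R and D546R H3K79me2, then D544R and D546R H3K79me3. These last 3 kinds of alternative were chosen after seeing the data.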
